A study of Homo sapiens with 16 samples.

Results

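The 8 genes described here are mesenchymal transition factors and markers: *SNAI1*, *SNAI2*, *ZEB1*, *ZEB2*, *TWIST1*, *VIM*, *FN1* and *CDH2*. They were taken by gene name from the 58721 genes of the deposited tables, and each name matched 1 gene. Of all genes, 22910 had at least 1 count in any library. RNA was sequenced in 16 libraries of 2 human bladder cancer cell lines, RT112, a luminal papillary line, and SCaBER, a line of the Basal/Squamous (Ba/Sq) type. Each line was reverse transfected with 10 nM, per the labels, of 1 of 4 small interfering RNAs (siRNAs): siFOXA1.1 or siFOXA1.2, both against the transcription factor FOXA1, or the control siControl.1 or siControl.2. Every siRNA has 2 libraries per line, numbered by experiment batch. No other source states that they were separate cultures, so the p-values below cover only the spread between these libraries. Each line is a single model of its subtype and was grown in its own medium, so line and medium cannot be told apart, and the knock-down was short-term.

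In an epithelial-mesenchymal transition, cells joined by E-cadherin loosen their junctions, change their cytoskeleton and lay down matrix. SNAI1, SNAI2, ZEB1, ZEB2 and TWIST1 are DNA-binding repressors and activators that bind E-box letters and drive this switch. VIM (vimentin, an intermediate filament protein), FN1 (fibronectin, a matrix glycoprotein) and CDH2 (N-cadherin, an adhesion protein) are its usual markers. FOXA1 is a forkhead factor known from luminal urothelial cells.

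Promoter windows of 3 transcription starts are shown for *FN1*, the only member that passed the test under a siFOXA1 siRNA, and for *CDH2*, which had the largest difference in CPM (counts scaled to 1000000 per library) between the lines. They are RefSeq sequence of GRCh38.p14, the 250 bases before the start on the transcribed strand, 5′ to 3′, and capitals mark the letters searched for. The *FN1* gene lies on the minus strand at chr2:215360865-215436068 with its window at chr2:215436069-215436318, and *CDH2* lies on the minus strand at chr18:27932879-28177130 with windows at chr18:28177131-28177380 and, for a start inside the gene, chr18:28036642-28036891.
FN1: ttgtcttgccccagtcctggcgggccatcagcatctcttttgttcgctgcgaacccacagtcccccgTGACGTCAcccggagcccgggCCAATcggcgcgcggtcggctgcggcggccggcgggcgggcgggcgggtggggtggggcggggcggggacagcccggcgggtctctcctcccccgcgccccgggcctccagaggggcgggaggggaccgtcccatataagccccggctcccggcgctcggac
CDH2, first start: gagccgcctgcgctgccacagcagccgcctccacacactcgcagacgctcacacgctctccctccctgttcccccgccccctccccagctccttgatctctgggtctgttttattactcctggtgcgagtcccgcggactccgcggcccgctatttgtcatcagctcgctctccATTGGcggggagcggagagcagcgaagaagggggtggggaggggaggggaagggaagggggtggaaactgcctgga
CDH2, inner start: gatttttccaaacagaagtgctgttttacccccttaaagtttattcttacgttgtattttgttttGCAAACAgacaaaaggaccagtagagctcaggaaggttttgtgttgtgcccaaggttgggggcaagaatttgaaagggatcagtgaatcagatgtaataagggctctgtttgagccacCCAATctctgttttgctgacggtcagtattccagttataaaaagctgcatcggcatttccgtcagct

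The searched letters were the forkhead forms TGTTTAC and TGTTTGC, the E-box CACCTG, the cyclic AMP response element TGACGTCA, the AP-1 site TGACTCA and the CCAAT box CCAAT, each on both strands. In the *FN1* window TGACGTCA began 183 bases before the start and CCAAT 162 bases before it. Of all 35116 windows of this length in the table, 1.65% hold TGACGTCA and 32.0% hold CCAAT. The *FN1* window was 76.4% G or C with 32 CpG pairs, against medians of 58% and 11 over all windows. The first *CDH2* window holds CCAAT as ATTGG, 76 bases before the start, and the inner window holds CCAAT at 67 bases and the forkhead letters TGTTTGC, as GCAAACA, at 185 bases. TGTTTGC is in 3.23% of all windows. TGTTTAC (2.98% of all windows), TGACTCA (4.20%) and CACCTG (17.5%) are in none of these 3 windows. A match is a description of the letters and not a bound site. The table holds 12 windows for 5 of the 8 members, the others being those of *ZEB1*, *ZEB2* and *VIM*. *SNAI1*, *SNAI2* and *TWIST1* have no entry.

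The RT112 libraries held 6622473 to 7604581 counts and the SCaBER libraries 4528513 to 6914951. A gene with 3 counts or fewer in a library was taken as not detected there, a floor that stood at 0.394 to 0.453 CPM in RT112 and 0.434 to 0.662 CPM in SCaBER and that covers counting error only. *FOXA1* was read at 18.2 to 35.0 CPM in the RT112 controls, at 1.32 and 3.24 CPM under siFOXA1.1 and at 9.18 and 16.0 CPM under siFOXA1.2. The RT112 log2 change against both controls was -3.44 under siFOXA1.1 (edgeR adjusted p = 2.19e-05) and -1.10 under siFOXA1.2 (edgeR adjusted p = 0.205). In SCaBER *FOXA1* was at 0.499 to 2.43 CPM in the controls and 0 to 0.951 CPM under the siFOXA1 siRNAs. These are 3 to 15 and 0 to 6 counts, and it did not pass the filter on low counts there. Both siFOXA1.1 libraries lay below every control. The siFOXA1.2 library at 0.951 CPM exceeded both siControl.1 libraries (0.499 and 0.623 CPM), so a knock-down by siFOXA1.2 is not shown in SCaBER. Mitochondrial genes took 27.0% ± 1.77 (SD, n = 2) of the RT112 siFOXA1.1 counts, and the means of the other RT112 siRNAs were 18.5% to 20.7%. Luminal markers such as *GATA3* (440.1 CPM ± 18.3 in RT112 and 12.3 ± 4.29 in SCaBER, SD, n = 4 siControl libraries each) and basal markers such as *KRT6A* (5.25 ± 4.22 and 914.9 ± 294.5 CPM) followed the labels, except that *KRT20* was at 0 in the controls of both lines. Of 11 stromal, endothelial and blood markers, *DCN*, *COL3A1*, *PDGFRA*, *PDGFRB*, *THY1*, *VWF* and *PTPRC* were at 0 in all 8 RT112 libraries. The endothelial marker *PECAM1* was at 4.32 CPM ± 1.87 (SD, n = 4) in the RT112 controls and at 0 to 11.2 CPM over the 8 RT112 libraries. *CDH5*, also endothelial, was at 0 in the RT112 controls and reached 1.92 CPM in RT112. The summed level of the 11 was 91.5 to 140.4 CPM in the RT112 controls, 104.7 and 112.2 CPM under siFOXA1.1, 149.5 and 153.3 CPM under siFOXA1.2, and 10.0 to 47.3 CPM over the SCaBER libraries. *LUM* was at 73.8 to 129.9 CPM in the RT112 controls, 127.8 and 136.8 CPM under siFOXA1.2, and 52.6 and 48.9 CPM under siFOXA1.1, where *COL1A1* was as high (56.5 and 53.9 CPM).

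The members were read very unevenly. In RT112, 2 of the 8 members were above the floor in all 8 libraries (*SNAI2* and *FN1*), 3 were at 0 counts in all 8 (*ZEB1*, *ZEB2* and *TWIST1*), and 3 were above the floor in some libraries only (*SNAI1*, *VIM* and *CDH2*). SCaBER had 4 members above the floor in all 8 libraries (*SNAI2*, *TWIST1*, *FN1* and *CDH2*), 3 in some (*ZEB1*, *ZEB2* and *VIM*) and 1 in none (*SNAI1*). A count of 0 in every library means not detectable at this depth. In bulk RNA, fewer expressing cells and less RNA per cell cannot be told apart.

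**Figure D1:**
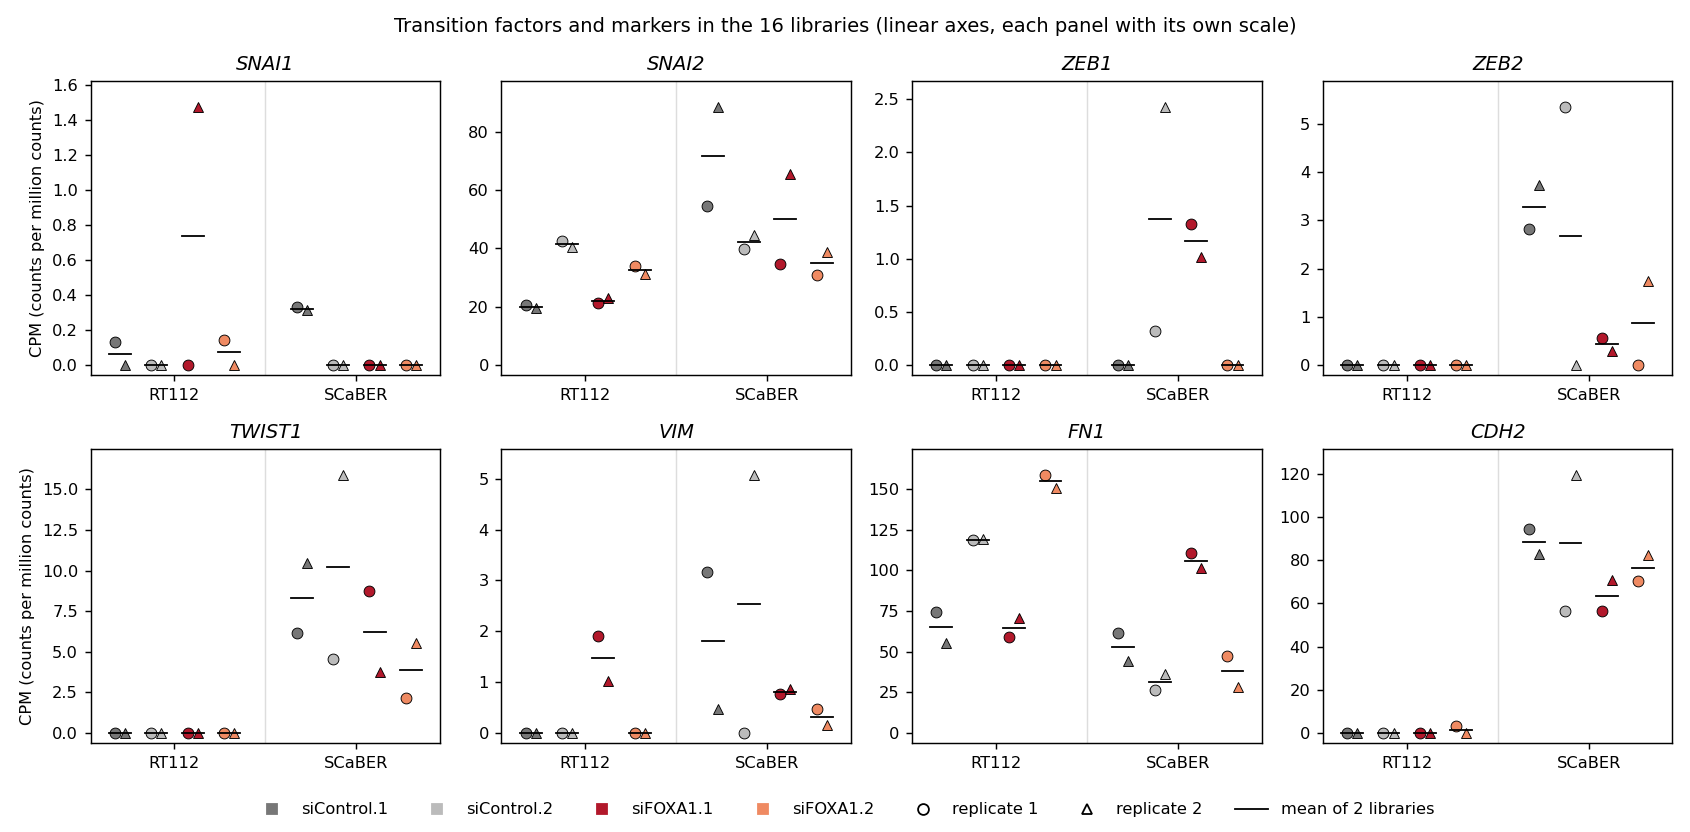
CPM of the 8 members in each of the 16 libraries, by line and siRNA, on linear axes that differ between panels. Circles are replicate 1, triangles replicate 2 and bars the mean of the 2 libraries. FN1 reached 110.6 CPM in SCaBER under siFOXA1.1 and 158.7 CPM in RT112 under siFOXA1.2, and CDH2 and TWIST1 were read in every SCaBER library.

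Levels per length, in the deposited TPM (counts per gene length, scaled to 1000000 per library), ranked the members within a line. In the 4 RT112 control libraries *SNAI2* came first at 17.9 TPM ± 7.81, then *FN1* at 10.5 TPM ± 3.98 (SD, n = 4 each), and their ranges of 10.9 to 25.4 and 6.05 to 13.9 TPM overlapped. In the SCaBER controls *CDH2* (45.7 TPM ± 13.6) and *SNAI2* (43.2 TPM ± 17.9) led with overlapping ranges, followed by *TWIST1* (11.7 TPM ± 6.54) and *FN1* (6.21 TPM ± 2.14), whose ranges overlapped too (SD, n = 4 each). *VIM*, *ZEB2*, *SNAI1* and *ZEB1* averaged 1.07, 0.305, 0.245 and 0.203 TPM there. Of the 18300 genes with a TPM above 0 in the SCaBER controls, 86.8% lay below *CDH2* and 26.7% below *VIM*. The kit reads the 3′ ends of transcripts, so dividing by length lowers long genes such as *FN1* relative to a count of transcripts. In CPM the place of *FN1* was reversed. It stood at 91.8 CPM ± 32.1 in the RT112 controls, above *SNAI2* at 30.8 ± 12.5 (SD, n = 4 each). In the SCaBER controls it stood at 42.1 CPM ± 14.9, above *TWIST1* at 9.26 ± 5.08 (SD, n = 4 each). Neither pair overlapped in CPM.

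Under the control siRNAs, 3 members were lower and 1 was higher in RT112 than in SCaBER. This comparison set the 4 RT112 control libraries against the 4 SCaBER control libraries, with both control siRNAs pooled. All 4 members that passed the filter on low counts also passed the edgeR quasi-likelihood test with Benjamini-Hochberg adjustment, beside 43.4% of the 12309 genes tested, 21.2% higher and 22.2% lower. *CDH2* and *TWIST1* passed that filter through SCaBER alone, so only a lower level in RT112 was possible for them. The count of called members is therefore a description and cannot be weighed against the share of all genes. *CDH2*, the neural cadherin, had 0 counts in each RT112 control and 56.6, 82.8, 94.3 and 119.5 CPM in the SCaBER controls, at least 194.9-fold higher in SCaBER when RT112 is set at its floor of 3 counts per library. *TWIST1*, a basic helix-loop-helix factor, had 0 counts in RT112 and 4.54, 6.16, 10.4 and 15.9 CPM in SCaBER, at least 20.4-fold higher. For both genes every SCaBER library lay above every RT112 library.

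*SNAI2* (SLUG), a zinc-finger repressor of E-cadherin, was read at 19.5, 20.5, 40.6 and 42.4 CPM in the RT112 controls and at 39.9, 44.6, 54.6 and 88.5 CPM in the SCaBER controls. The 2 upper RT112 values, both under siControl.2, reached into the SCaBER range. The log2 change of RT112 against SCaBER was -0.88 (SE 0.30, edgeR adjusted p = 0.0270), and it missed the threshold without SCaBER siControl.1 replicate 2 (-0.60, edgeR adjusted p = 0.106) and without either RT112 siControl.1 library (edgeR adjusted p = 0.0795 and 0.0778). *FN1* went the other way, with 55.3, 74.4, 118.4 and 119.2 CPM in RT112 and 26.3, 36.2, 44.3 and 61.6 CPM in SCaBER, a log2 change of 1.13 (SE 0.27, edgeR adjusted p = 0.00361). The lowest RT112 library and the highest SCaBER library overlapped. Both were under siControl.1, where the means were 64.8 CPM in RT112 and 52.9 CPM in SCaBER (n = 2 each). Under siControl.2 the means were 118.8 and 31.3 CPM (n = 2 each) with ranges apart, so most of the difference lay there. On log2(TPM + 1) in limma the *FN1* difference was 0.65 with an adjusted p of 0.111.

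*ZEB2* and *VIM* did not pass the filter in this comparison. *ZEB2* had 0, 17, 24 and 33 counts in the SCaBER controls and *VIM* 0, 3, 19 and 23, and neither had a count in the RT112 controls. An edgeR fit without the filter, over 21098 genes, gave an adjusted p of 0.000176 for *ZEB2* and 0.00220 for *VIM*. With RT112 at 0, only a lower level there was possible. The ranges of the lines overlapped at 0 for both genes, and *VIM* was above the floor in 2 of 4 SCaBER controls, so these values do not establish a difference. *ZEB1* had 0, 0, 2 and 11 counts and *SNAI1* 0, 0, 2 and 2 counts in the SCaBER controls, and *SNAI1* had 1 count in 1 RT112 control. Values for *ZEB1* and *VIM* carry a further limit, since each overlaps an antisense gene and the strand setting of the counting is given only as automatic. *ZEB1-AS1* had 61 counts over the 8 SCaBER libraries, more than the 27 of *ZEB1* itself, and *VIM-AS1* had 15 beside 59 of *VIM*. *ZEB2* has an antisense gene as well, *ZEB2-AS1*, with 6 counts beside 90 of *ZEB2*. Of these 6 counts, 5 were in SCaBER siFOXA1.1 replicate 2, where *ZEB2* had 2.

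*FN1* was the only member that passed the test under a siFOXA1 siRNA, under siFOXA1.1 in SCaBER and under siFOXA1.2 in RT112. In the SCaBER libraries *FN1* stood at 110.6 and 101.1 CPM under siFOXA1.1, at 47.5 and 28.2 CPM under siFOXA1.2, at 61.6 and 44.3 CPM under siControl.1 and at 26.3 and 36.2 CPM under siControl.2, replicates 1 and 2 in turn. Both siFOXA1.1 libraries were above all the others, and the siFOXA1.2 libraries lay within the control range. The log2 change under siFOXA1.1 was 1.41 (SE 0.26, 95% interval 0.85 to 1.98, edgeR adjusted p = 0.00350), a 2.67-fold rise.

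Of the 5 members tested in SCaBER, 1 rose and none fell under siFOXA1.1, beside 9.26% of 11902 genes called in either direction and 4.47% called higher. Within each batch the rise was alike, with log2 differences of 1.45 in batch 1 and 1.33 in batch 2 on log2(CPM + 0.5), which carry no test. Against siControl.2 alone the change was 1.79 (edgeR adjusted p = 0.00406). Against siControl.1 alone it was 1.04 and missed the threshold (edgeR adjusted p = 0.0699), as it did on log2(TPM + 1) in limma (1.25, adjusted p = 0.0609). It passed with each of the 8 libraries left out in turn, between 1.30 and 1.55.

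Under siFOXA1.2 none of the 5 members passed in SCaBER, beside 0.042% of genes. The *FN1* change was -0.08 (95% interval -0.67 to 0.51, edgeR adjusted p = 0.999). 1 member, *SNAI2*, had an unadjusted p under 0.05, and DESeq2 and limma on log2(TPM + 1) also called none. The siRNAs themselves differed: *FN1* was 1.49 log2 units higher under siFOXA1.1 than under siFOXA1.2 (SE 0.32, edgeR adjusted p = 0.0146), the only member of 5 called there, beside 4.85% of genes in either direction and 2.05% higher. That call was lost without SCaBER siFOXA1.2 replicate 2 (1.16, edgeR adjusted p = 0.192) and on log2(TPM + 1) in limma (1.37, adjusted p = 0.0985).

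In RT112 the *FN1* levels were 58.9 and 70.6 CPM under siFOXA1.1, 158.7 and 150.5 CPM under siFOXA1.2, 74.4 and 55.3 CPM under siControl.1 and 118.4 and 119.2 CPM under siControl.2. Both siFOXA1.2 libraries exceeded all others, the siFOXA1.1 libraries overlapped siControl.1, and the controls formed 2 separate levels. Under siFOXA1.2 *FN1* rose 1.78-fold, a log2 change of 0.84 (SE 0.16, 95% interval 0.51 to 1.16, edgeR adjusted p = 0.00643). It was 1 of 2 members tested, beside 2.04% of 11986 genes called in either direction and 1.04% called higher. The within-batch differences were 0.75 and 0.89.

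This rise depended on the control. Against siControl.1 alone it was 1.24 (edgeR adjusted p = 0.000685) and against siControl.2 alone 0.43 (edgeR adjusted p = 0.394). *FN1* was itself lower under siControl.1 than under siControl.2, by a log2 change of -0.81 (SE 0.19, edgeR adjusted p = 0.0265), 1 of 2 members tested, beside 2.36% of genes in either direction and 1.12% lower, and missed the threshold without siControl.1 replicate 2 or either siControl.2 library (edgeR adjusted p = 0.156 to 0.365). The siFOXA1.2 call was also lost without RT112 siFOXA1.2 replicate 1 (edgeR adjusted p = 0.124) or replicate 2 (edgeR adjusted p = 0.0772) and on log2(TPM + 1) in limma (0.75, adjusted p = 0.184).

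Under siFOXA1.1 neither member tested in RT112 passed, beside 32.6% of genes, and neither had an unadjusted p under 0.05. *FN1* changed by -0.30 (95% interval -0.65 to 0.04, edgeR adjusted p = 0.173). It was -0.71 against siControl.2 alone (edgeR adjusted p = 0.00811) and 0.10 against siControl.1 alone (edgeR adjusted p = 0.734), and with library totals in place of TMM scaling it was -0.44 (edgeR adjusted p = 0.0471). DESeq2 called no member, and limma on log2(TPM + 1) called *SNAI2* lower. The larger mitochondrial share of these libraries moved with this comparison, and its part in the result was not tested. *FN1* was lower under siFOXA1.1 than under siFOXA1.2 by a log2 change of -1.14 (SE 0.19, edgeR adjusted p = 0.000186), 1 of 2 members, beside 28.1% of genes in either direction and 15.1% lower, and this call held in each of its 14 alternatives.

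**Figure D2:**
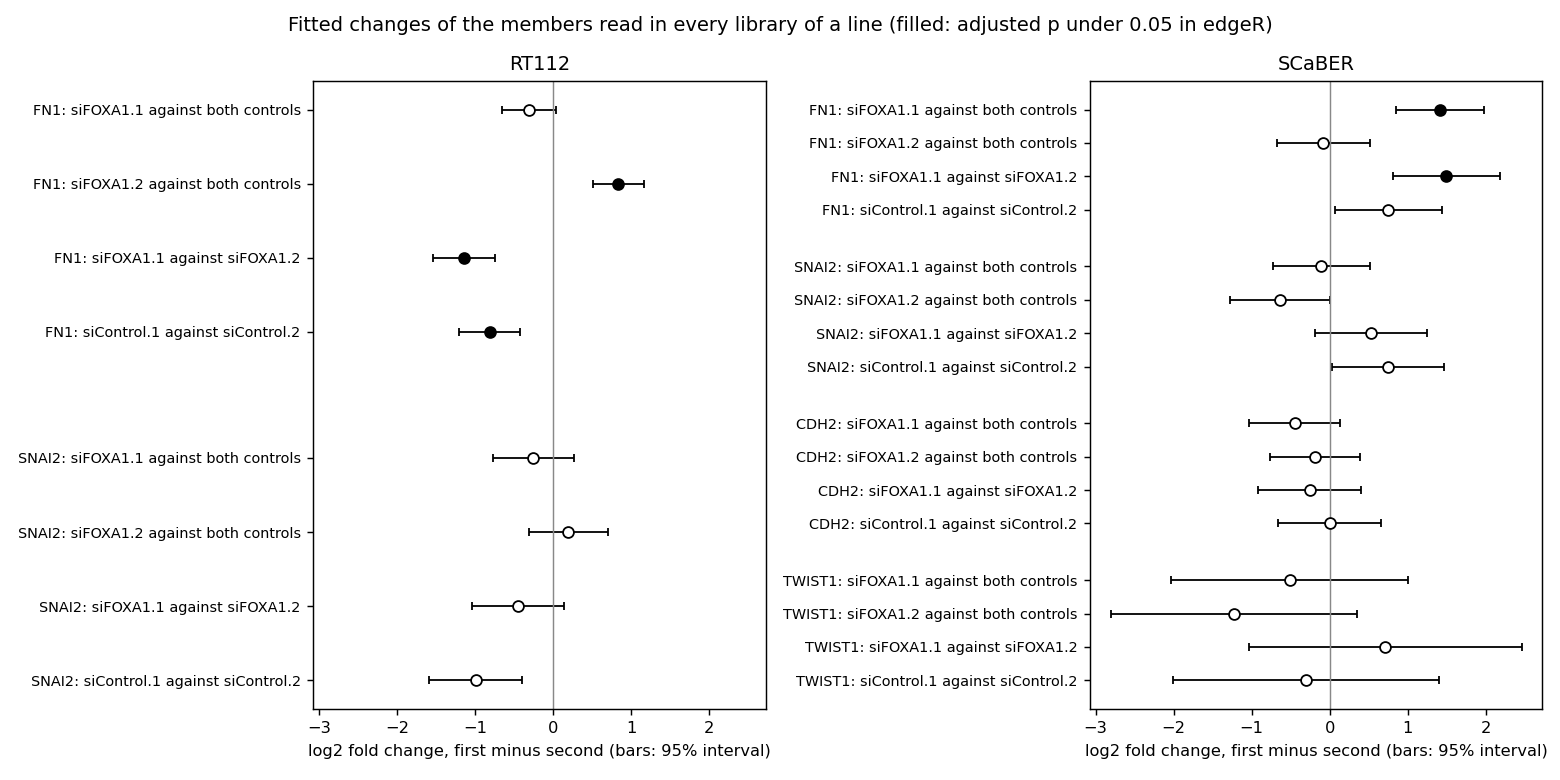
Log2 fold changes of the members above the floor in every library of a line, with 95% intervals from the edgeR fit of each line's 8 libraries. Filled points have an adjusted p under 0.05. FN1 is filled at 1.41 for siFOXA1.1 in SCaBER and at 0.84 for siFOXA1.2 in RT112. It is also filled for siFOXA1.1 against siFOXA1.2, at 1.49 in SCaBER and -1.14 in RT112, and for siControl.1 against siControl.2 in RT112, at -0.81. No other member is filled.

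Against both controls, the *FN1* change under siFOXA1.1 differed between the lines, but not past the threshold against siControl.1 alone. In a fit of all 16 libraries, the change in RT112 minus the change in SCaBER was -1.73 on the log2 scale (SE 0.33, 95% interval -2.42 to -1.05, edgeR adjusted p = 0.00671), the only one of 5 members tested to pass, beside 3.14% of 13701 genes in either direction and 1.83% lower. It passed in 23 of 24 alternatives. The choice of control moved it most, to -2.53 against siControl.2 alone (edgeR adjusted p = 0.00165) and to -0.94 against siControl.1 alone, where it missed the threshold (edgeR adjusted p = 0.232). For siFOXA1.2 the same difference was 0.92 (95% interval 0.23 to 1.60, edgeR adjusted p = 0.654), and none of the 5 members passed, beside 0.0438% of genes, with 3 at an unadjusted p under 0.05 and none in DESeq2 or limma. Of the 5 members tested, 3 had 0 counts in at least 7 RT112 libraries, so only *FN1* and *SNAI2* could be read in these fits. *SNAI2* differed by -0.16 for siFOXA1.1 (edgeR adjusted p = 0.949) and 0.83 for siFOXA1.2 (edgeR adjusted p = 0.785).

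Pooling both siFOXA1 siRNAs against both controls gave no called member in either line, with none at an unadjusted p under 0.05 and none in DESeq2 or limma. The pooled *FN1* change was 0.32 in RT112 (95% interval -0.40 to 1.04, edgeR adjusted p = 0.713), beside 0.108% of genes called. It was 0.80 in SCaBER (95% interval -0.02 to 1.62, edgeR adjusted p = 0.571), beside 0.0084% of genes.

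*SNAI2* was the one transition factor read in every library, and no change of it under a siFOXA1 siRNA passed. Its RT112 levels were 21.2 and 22.8 CPM under siFOXA1.1 and 33.9 and 31.1 CPM under siFOXA1.2, between the 20.5 and 19.5 CPM of siControl.1 and the 42.4 and 40.6 CPM of siControl.2. The log2 changes against both controls were -0.25 (95% interval -0.77 to 0.27, edgeR adjusted p = 0.474) and 0.19 (95% interval -0.31 to 0.70, edgeR adjusted p = 0.850). The 2 controls differed by -0.99 (SE 0.28, edgeR adjusted p = 0.0829, and 0.0289 in DESeq2), more than either siFOXA1 siRNA differed from their mean.

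In SCaBER *SNAI2* was at 34.7 and 65.7 CPM under siFOXA1.1, 30.9 and 38.8 CPM under siFOXA1.2, 54.6 and 88.5 CPM under siControl.1 and 39.9 and 44.6 CPM under siControl.2. The siFOXA1.2 libraries were below all 4 controls, and the siFOXA1.1 libraries spanned them. Under siFOXA1.2 the change was -0.64 (95% interval -1.27 to -0.000327, edgeR adjusted p = 0.935), with an unadjusted p of 0.0499, and under siFOXA1.1 it was -0.11 (edgeR adjusted p = 0.880). Between the controls of SCaBER no member of 5 was called, beside 0.0672% of genes, although *SNAI2* (0.74) and *FN1* (0.75) had an unadjusted p under 0.05, and DESeq2 and limma called none.

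*CDH2* in SCaBER was read at 56.2 and 70.7 CPM under siFOXA1.1, 70.2 and 82.2 CPM under siFOXA1.2, 94.3 and 82.8 CPM under siControl.1 and 56.6 and 119.5 CPM under siControl.2. The siFOXA1 values lay within the control range but for 1 siFOXA1.1 library just under it, and the siControl.2 libraries were the farthest apart. The log2 changes were -0.44 (95% interval -1.03 to 0.14, edgeR adjusted p = 0.368) under siFOXA1.1 and -0.19 (95% interval -0.77 to 0.38, edgeR adjusted p = 0.999) under siFOXA1.2. In RT112 *CDH2* had 21 counts, 3.06 CPM, in siFOXA1.2 replicate 1 and 0 in the other 7 libraries. That library held 7 genes with at least 20 counts and 0 in the other 7 RT112 libraries, and such genes numbered 5 to 24 per RT112 library.

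*TWIST1* in SCaBER had 46 and 26 counts under siFOXA1.1, 14 and 35 under siFOXA1.2, 37 and 67 under siControl.1 and 28 and 72 under siControl.2, replicates 1 and 2 in turn. The groups overlapped. The changes were -0.51 (95% interval -2.03 to 1.00, edgeR adjusted p = 0.740) and -1.23 (95% interval -2.81 to 0.35, edgeR adjusted p = 0.999).

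The zinc-finger homeobox factors were read in SCaBER only. *ZEB2* had 3 and 2 counts under siFOXA1.1, 0 and 11 under siFOXA1.2, 17 and 24 under siControl.1 and 33 and 0 under siControl.2. Of the 4 controls 3 were above each of the siFOXA1 libraries, and the fourth, at 0, was not. The changes were -2.73 (95% interval -6.45 to 0.98, edgeR adjusted p = 0.388) and -1.75 (95% interval -5.15 to 1.66, edgeR adjusted p = 0.999). Without SCaBER siControl.2 replicate 1, the library with 33 counts, the fitted changes were 0.80 and 1.77. That fit takes 1 mean per siRNA and leaves siControl.2 with 1 library at 0 counts, so these values depend on how a count of 0 is treated and give no direction. The mean of the other 3 controls, 2.19 CPM ± 1.95 (SD, n = 3), was still above those of siFOXA1.1 (0.429 ± 0.197, SD, n = 2) and siFOXA1.2 (0.871 ± 1.23, SD, n = 2). *ZEB1*, which did not pass the filter, had 7 and 7 counts under siFOXA1.1, 0 and 0 under siFOXA1.2, 0 and 0 under siControl.1 and 2 and 11 under siControl.2.

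*VIM* was at 0 in the RT112 controls and under siFOXA1.2, and had 13 and 7 counts under siFOXA1.1, 1.90 and 1.03 CPM. Both siFOXA1.1 libraries were above the floor and the other 6 were at 0. The siFOXA1.1 mean was at least 3.24-fold higher than the controls set at their floor of 3 counts per library. *VIM* did not pass the filter, and without the filter its edgeR adjusted p was 0.145. Of the RT112 libraries, those of siFOXA1.1 also held the most genes read in 1 library alone (24 and 14 genes). In SCaBER *VIM* had 4 and 6 counts under siFOXA1.1, 3 and 1 under siFOXA1.2, 19 and 3 under siControl.1 and 0 and 23 under siControl.2, with overlapping groups. *SNAI1*, the SNAIL repressor, had 10 counts in RT112 siFOXA1.1 replicate 2 and at most 2 in each of the other 15 libraries.

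The pathway around the members was followed in 4 lists, and no set test was run on them. Under siFOXA1.1 in RT112, 9 of 17 other mesenchymal genes tested rose and 3 fell, beside 32.6% of all genes called in either direction, with a median log2 change of 0.82 beside -0.01 over all genes. Examples were *CYR61*, a matricellular protein (6.21 CPM ± 1.21, n = 4 controls, and 55.9 ± 6.78, n = 2, log2 change 3.32), *COL1A1*, a collagen I chain (8.76 ± 1.40 and 55.2 ± 1.84 CPM, 2.80), and *CALD1*, caldesmon (16.3 ± 6.91 and 79.7 ± 10.2 CPM, 2.50, SD), with edgeR adjusted p from 1.43e-07 to 9.62e-07. Of all genes called in this comparison, 47.9% were higher. The mesenchymal list also differed between the RT112 controls, with a median of -0.71 for siControl.1 against siControl.2. It was not read against each control alone. Genes of the epithelial list moved both ways, 9 of 20 rising and 6 falling, beside the same 32.6% of all genes. *CDH1*, E-cadherin, rose from 204.8 CPM ± 23.7 (SD, n = 4) to 470.5 ± 52.03 (SD, n = 2), a log2 change of 1.34 (edgeR adjusted p = 1.51e-07), and *DSP*, desmoplakin of the desmosome, fell from 421.0 ± 66.4 to 127.7 ± 17.0 CPM, by 1.58 on the log2 scale (edgeR adjusted p = 2.19e-08). *OCLN* (2.07) and *CDS1* (1.82) rose as well. Of the fibroblast markers, *COL1A1* is counted here among the mesenchymal genes that rose, *LUM* was below its control range, and *DCN*, *COL3A1*, *PDGFRA*, *PDGFRB* and *THY1* were at 0 in these libraries. The part of their larger mitochondrial share in these counts was not tested.

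Scaling moved these counts little and the medians more. Library totals lowered the median of all genes by 0.13 and log2(TPM + 1) by 0.27, and the mesenchymal list then had 8 or 7 genes higher and 3 lower, with medians of 0.70 and 0.37. The epithelial list had 8 or 7 higher and 6 or 7 lower, and its median turned from 0.07 to -0.06 and -0.16. Of 5 other transition factors 1 rose and 2 fell under siFOXA1.1 in RT112, among them *SOX9* (1.55) and *TCF12* (-1.08), beside 32.6% of all genes called. Of 7 genes of the TGF-beta list only *TGFBR2*, the type II receptor, was called, and it fell (-1.76). That is 14.3% of the list, below the 32.6% of all genes. These named genes each had an edgeR adjusted p under 0.05.

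Under siFOXA1.2 in RT112, 2.04% of all genes were called. *SOX9* (1.29, edgeR adjusted p = 0.00251) and *HMGA2*, a chromatin protein (2.08, edgeR adjusted p = 0.0257), rose among 5 factors. *S100A4*, a calcium-binding protein, was the 1 of 17 mesenchymal genes called, and it fell by 0.65 on the log2 scale. *TJP3*, a tight junction scaffold, fell (-1.81) and *CDS1* rose (0.69) among 20 epithelial genes, while *CDH1* changed by 0.12 (edgeR adjusted p = 0.806). None of 7 TGF-beta genes passed. On log2(TPM + 1) in limma 1 epithelial gene was called lower and no gene of the other lists passed. Between the RT112 controls, 3 of 17 mesenchymal genes were lower under siControl.1, beside 2.36% of all genes called, with a list median of -0.71.

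In SCaBER under siFOXA1.1, 3 of 26 mesenchymal genes rose and 1 fell, 15.4% of the list beside 9.26% of all genes called, with a median of 0.33 beside 0.01 over all genes. *ITGA5*, the alpha chain of the fibronectin receptor, went from 148.5 CPM ± 37.2 (SD, n = 4) to 309.6 ± 2.32 (SD, n = 2), a log2 change of 1.12 (edgeR adjusted p = 0.00184). *CALD1*, an actin-binding protein, rose by 0.95 (edgeR adjusted p = 0.00262). *TCF3* was the 1 of 6 factors called and fell by 1.66 on the log2 scale. Of 20 epithelial genes *RAB25* (0.98) and *CDS1* (0.64) rose, *KRT18* fell (-0.91), 15% of that list beside the same 9.26%, and *CDH1* changed by 0.73 (edgeR adjusted p = 0.0726). None of 8 TGF-beta genes passed. DESeq2 and the replicate block each called 5 mesenchymal genes higher and 1 lower, and limma on log2(TPM + 1) called 2 higher. Under siFOXA1.2 no gene of any of the 4 lists passed in SCaBER, in edgeR, DESeq2 or limma.

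**Figure D3:**
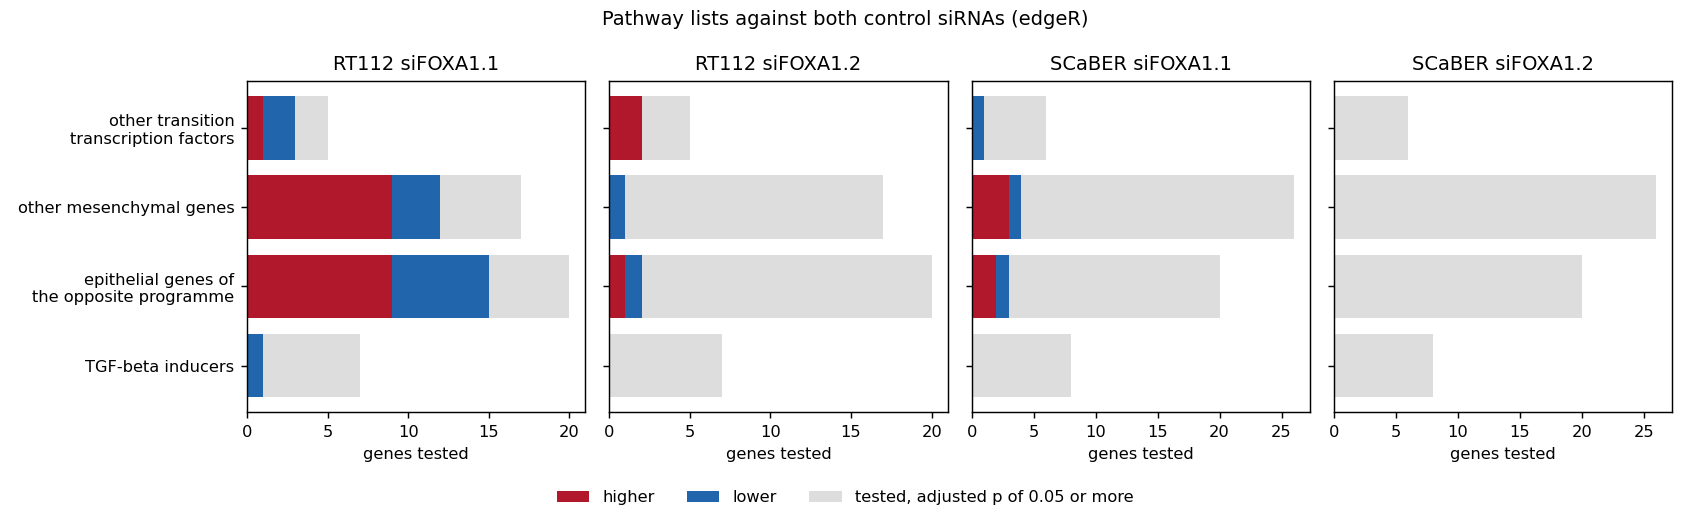
Number of genes tested in each of 4 pathway lists, split into those higher, lower or not past an adjusted p of 0.05 in edgeR, for each siFOXA1 siRNA against both controls. Other mesenchymal genes under siFOXA1.1 were 9 higher and 3 lower of 17 in RT112 and 3 higher and 1 lower of 26 in SCaBER.

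Between the control libraries of the lines, 15 of 23 other mesenchymal genes were lower in RT112 and 1 higher, beside 43.4% of all genes called, 22.2% lower and 21.2% higher, with a median log2 change of -4.11 beside 0.02 over all genes. The filter on low counts kept 17 genes of this list within RT112 and 26 within SCaBER. Genes such as *MSN*, at 0 in the RT112 controls, passed here through SCaBER alone, which tilts the count and the median towards lower. *MSN*, moesin, was at 0 in the 4 RT112 controls and at 180.3 CPM ± 10.7 (SD, n = 4) in SCaBER, at least 397.9-fold higher. *LOXL2*, a lysyl oxidase, stood at 0.840 ± 0.992 and 116.8 ± 19.7 CPM, and *TPM2*, a tropomyosin, at 3.71 ± 2.77 and 268.1 ± 25.9 CPM in RT112 and SCaBER (SD, n = 4 each). Epithelial genes were split, 9 higher and 6 lower of 20, from *KRT19* (3135 ± 225.8 and 1.37 ± 1.55 CPM) to *PKP3* (48.2 ± 10.2 and 141.5 ± 25.2 CPM), and on log2(TPM + 1) in limma the split was 5 higher and 9 lower. Beside the same 43.4%, of 5 other factors 1 was higher and 3 lower, with *HMGA2* at 4.91 ± 1.08 CPM in RT112 and 251.4 ± 62.01 CPM in SCaBER. Of 8 TGF-beta genes 2 were higher and 3 lower. *TGFB2*, a ligand, was at least 97.3-fold higher in SCaBER, whereas *TGFBR2* was higher in RT112 (53.8 ± 4.34 and 5.92 ± 2.30 CPM).

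The genes closest to each member in level pattern over the 16 libraries were found by the root mean square difference of centred log2 CPM among 11203 genes. For *FN1* they were *TMBIM1* (0.43) and *GPR180* (0.46), against a spread of 0.79 in *FN1* itself. For *SNAI2* they were *TBCC* (0.26) and *S100A10* (0.28), beside a spread of 0.56. *CDH2* was closest to *MYLK* (0.59) and *SERPINB1* (0.64), beside a spread of 3.86, and *TWIST1* to *AC079949.2* (0.39) and *RPL29P19* (0.39), beside 2.26. The neighbours of *CDH2* and *TWIST1* likewise averaged 0 to 0.416 CPM in RT112.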

How the data were processed

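RNA of 16 libraries, 4 siRNAs with 2 libraries each in 2 cell lines, was sequenced with a 3′ mRNA kit (Lexogen, forward). The authors deposited whole-number counts per gene and TPM values, which they divided by gene length and scaled to 1000000 per library, with the source of the length not given in the sources used here. Per the deposited pipeline description, reads were trimmed with TrimGalore 0.6.2 (minimum quality 20, minimum length 10), mapped by STAR 2.6.1a to hg38 and counted on the genes of GENCODE 29 with the strand set automatically, and no molecular identifiers are stated. The methods of the study name hg19 and 10 ng of siRNA, whereas the labels give hg38 and 10 nM. Every column of per-sample values was used.

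Counts were fitted with edgeR 4.0.16 in R 4.3.3 by its quasi-likelihood test after TMM scaling and filterByExpr, with p adjusted by Benjamini-Hochberg over all genes tested and a threshold of 0.05. The 8 libraries of a line were fitted with 1 mean per siRNA, or pooled by target, the 8 control libraries by line, and all 16 libraries for interactions, 13 comparisons in all. Intervals are 95% intervals of the fitted log2 change. Scripts were tested on simulated counts. The alternatives were DESeq2 1.42.0, its size factors, library totals, no filter, limma 3.58.1 on log2(TPM + 1), a replicate block and leaving out each library. The comparisons and interactions with each control siRNA alone, the antisense genes, the promoter search and the count of genes read in 1 library were added after the data had been seen.

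The members and the lists were chosen with earlier results of these data known, so counts over a list are descriptions. All 8 members are named, and from each list the 3 largest changes with an adjusted p under 0.05 and a mean of at least 20 counts, *CDH1* always, and for each member that passed the filter the 2 genes most like it. The labels call the replicate number an experiment batch, so the numbers were taken to pair the libraries. The main fits left this pairing out, and only the replicate block used it. The correlation of same-numbered libraries' deviations was -0.0131 to 0.00867 over the 6 pairs of siRNAs in RT112 and 0.0104 to 0.158 in SCaBER. Replicates differed by more than counting noise in every group (chi-square per degree of freedom 8.35 to 34.0). Values of some single genes that the naming rule selected are not reported here, and those genes stay in the counts of their lists.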

Additional observations from a re-analysis of the deposited data

Results flagged for a closer look

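The *FN1* change under siFOXA1.1 differed between the lines by a tested difference of -1.73 (RT112 minus SCaBER, log2, edgeR adjusted p = 0.00671). Against siControl.1 alone it was -0.94 (edgeR adjusted p = 0.232). In SCaBER both siFOXA1.1 libraries were above every other library. In RT112 both were below siControl.2 but overlapped siControl.1, with a change of 0.10 against siControl.1 alone (edgeR adjusted p = 0.734). *SNAI1* stood apart at 1.47 CPM in RT112 siFOXA1.1 replicate 2 from the other RT112 siFOXA1 libraries. *CDH2* did so at 3.06 CPM in RT112 siFOXA1.2 replicate 1, and *ZEB1* at 2.43 CPM in SCaBER siControl.2 replicate 2 among the SCaBER controls. These are 3 of 21 groups of 4 libraries tested for a library far from the rest, and chance marks about 1 in 20. Each rests on 10 to 21 counts in 1 library. The other libraries of these groups held 0 to 2 counts, so that rate need not hold for them and an excess of flags cannot be read from it.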

How the results depend on the processing

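Counts of called members moved with the scaling, the control and the library left out. Under siFOXA1.1 in RT112 the count of 0 became 1 with library totals (*FN1*), 1 with limma on log2(TPM + 1) (*SNAI2*) and 1 against siControl.2 alone (*FN1*). Under siFOXA1.2 in RT112 the count of 1 became 0 with limma and 0 against siControl.2 alone, and 0 to 1 with a library left out. Between the siFOXA1 siRNAs of RT112 it became 2 with limma. Between the RT112 controls it became 2 with DESeq2, 0 with limma and 0 to 2 with a library left out. For siFOXA1.1 in SCaBER the count of 1 became 0 with limma and 0 against siControl.1 alone, and between the siFOXA1 siRNAs of SCaBER 0 with limma and 0 to 1 with a library left out. In the siFOXA1.2 interaction the count of 0 became 1 without the filter, 1 with the replicate block and 0 to 1 with a library left out, each time *CDH2* on the 21 counts of RT112 siFOXA1.2 replicate 1. In the siFOXA1.1 interaction the count of 1 became 0 against siControl.1 alone. The replicate block changed no other call of a member.

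Uncalled changes turned sign in some fits. Against siControl.1 alone, RT112 siFOXA1.1 gave 0.10 for *FN1* and 0.24 for *SNAI2*, and against siControl.2 alone *SNAI2* gave -0.30 for RT112 siFOXA1.2 and 0.26 for SCaBER siFOXA1.1, and *FN1* gave 0.30 for SCaBER siFOXA1.2. *SNAI2* gave 0.71 in the siFOXA1.1 interaction against siControl.1 alone and -0.043 in the siFOXA1.2 interaction against siControl.2 alone. With 1 library left out, *SNAI2* ranged from -0.25 to 0.10 in the pooled RT112 comparison, from -0.59 to 0.26 for SCaBER siFOXA1.1 and from -0.53 to 0.33 in the siFOXA1.1 interaction. For SCaBER siFOXA1.2, *FN1* ranged from -0.51 to 0.25 and *CDH2* from -0.41 to 0.12. *ZEB2* ranged from -3.28 to 0.80 for SCaBER siFOXA1.1, -7.16 to 1.77 for siFOXA1.2, -1.97 to 4.43 between them and -0.73 to 7.29 between the controls. The values of 0.80, 1.77, -7.16, 4.43 and 7.29 come from fits that leave 1 siRNA with 1 library at 0 counts, and their size and sign give no direction. *TWIST1* ranged from -1.28 to 0.069 for SCaBER siFOXA1.1, -0.051 to 1.53 between the siFOXA1 siRNAs and -0.94 to 0.84 between the controls, where *CDH2* ranged from -0.43 to 0.62. The causes of the other sign changes were not tested.

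Counts over all genes moved by over 1.5 times in 10 comparisons. The main count and the range over the alternatives were 245 (68 to 430) for RT112 siFOXA1.2, 283 (58 to 468) for the RT112 controls, 13 (0 to 170) for RT112 pooled, 1102 (540 to 1525) for SCaBER siFOXA1.1, 5 (0 to 42) for SCaBER siFOXA1.2, 577 (112 to 1044) between the SCaBER siFOXA1 siRNAs, 8 (0 to 91) for the SCaBER controls, 1 (0 to 213) for SCaBER pooled, and 430 (206 to 781) and 6 (0 to 66) for the interactions. With the replicate block they were 0 for both pooled comparisons, 35 for the SCaBER controls and 12 for the siFOXA1.2 interaction. Of the genes called under RT112 siFOXA1.1, 47.9% were higher, 36.9% with library totals and 21.3% with limma on log2(TPM + 1). With a prior count of 0.5, 1 of the 2 genes most like *CDH2* and 1 of the 2 most like *TWIST1* stayed the same. Depth limits *SNAI1*, *ZEB1*, *ZEB2* and *VIM*, which had at most 33 counts in any library.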
